A study of Caenorhabditis elegans with 2 samples.

Results

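The genes described here are 10 Caenorhabditis elegans genes of epidermal defence and salt balance: the neuropeptide-like peptide genes nlp-27, nlp-28, nlp-29, nlp-30, nlp-31 and nlp-34, the caenacin genes cnc-1, cnc-2 and cnc-4, and osr-1. They were taken as a named list, and they are 10 of 19985 protein-coding genes in the annotation. Each was examined over its gene body and 2000 bp on either side, for binding of the transcription factor ELT-1 measured by chromatin immunoprecipitation and sequencing (ChIP-seq). The material was whole L3 larvae of mixed sex, sampled as 1 group in 2 biological replicates, without another condition. All animals were of strain OP354, genotype unc-119(tm4063) III with the insertion wgIs354, and the precipitated protein was elt-1 fused to eGFP, with the antibody given as elt-1. The tagged protein thus came from an inserted transgene, and the animals were not separated by tissue, so the cell type in which a site was bound is not known. The deposited values are peak lists made with a control that was not analysed here, and the read depth behind them is unknown.

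ELT-1 is a GATA-type zinc finger factor that specifies epidermal fate in the embryo and stays active in the larval epidermis. The nlp genes studied here encode short glycine-rich secreted peptides, and the cnc genes encode the related caenacins. Both families are made in the epidermis and rise on fungal infection or wounding, nlp-29 through the p38 MAP kinase PMK-1 and cnc-2 through the TGF-β ligand DBL-1, and nlp-29 also rises under osmotic stress. Loss of osr-1 makes worms resistant to osmotic stress and raises their glycerol.

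GATA factors bind short sites, searched here on both strands as AGATAA (or, with a final G, AGATAG) and TGATAA (or, with a final G, TGATAG). The sequences below come from ce11, chromosome V, plus strand, 5′ to 3′, with these sites in capitals. They are shown as examples of summits near peptide genes with and without a site, and the nlp-28 summit among them is a weak one. In the first of them TGATAA and AGATAG overlap by 1 base. The first lies just upstream of the nlp-31 start (V:3979991-3980054), and the second is a stretch of 30 bases at the same summit, past that start (V:3980076-3980105). The others run from 50 bp before to 50 bp after a summit, upstream of cnc-4 (V:1447066-1447166), upstream of nlp-28 (V:3987793-3987893), downstream of nlp-29 (V:3984956-3985056) and upstream of nlp-29 (V:3984261-3984361).
nlp-31 upstream: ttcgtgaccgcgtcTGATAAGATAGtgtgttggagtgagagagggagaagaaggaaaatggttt
nlp-31 sites at the summit: caaaaagAGATAGtggAGATAAgaatatct
cnc-4 upstream: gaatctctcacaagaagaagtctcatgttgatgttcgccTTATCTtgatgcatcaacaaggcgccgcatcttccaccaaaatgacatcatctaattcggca
nlp-28 upstream: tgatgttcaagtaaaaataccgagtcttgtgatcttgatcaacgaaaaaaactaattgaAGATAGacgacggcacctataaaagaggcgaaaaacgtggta
nlp-29 downstream: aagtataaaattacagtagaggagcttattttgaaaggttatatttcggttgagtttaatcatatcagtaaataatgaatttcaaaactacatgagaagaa
nlp-29 upstream: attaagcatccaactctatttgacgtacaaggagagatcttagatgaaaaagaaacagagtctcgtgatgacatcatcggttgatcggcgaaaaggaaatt

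The nlp-31 summit thus has 2 sites within 50 bp and a further overlapping pair just upstream. The cnc-4 site is AGATAA read on the minus strand, and the nlp-28 site is AGATAG on the plus strand. Both stretches at nlp-29, the peptide gene most used as an infection reporter, hold none of the 4 searched sites. A match of these letters is a description, and a stretch without one says nothing about binding by the factor.

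Of the 10 genes, 4 had a summit of the thresholded list within their windows, beside 10.9% of all protein-coding genes. That list passed a threshold on the irreproducible discovery rate (IDR), which scores whether a peak ranks alike in both replicates. The 4 genes rested on only 2 peaks, since nlp-30, nlp-31 and nlp-34 shared a single one and osr-1 had its own. All 10 genes had a summit of the relaxed list called from both replicates pooled, as did 14800 protein-coding genes (74.1%). The median of the genes' strongest pooled signal was 25.2, against 10.6 over those genes. Signal here is the authors' own peak score, on a scale not given in the sources used here, and its ranks are meaningful only within a list.

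**Figure D1:**
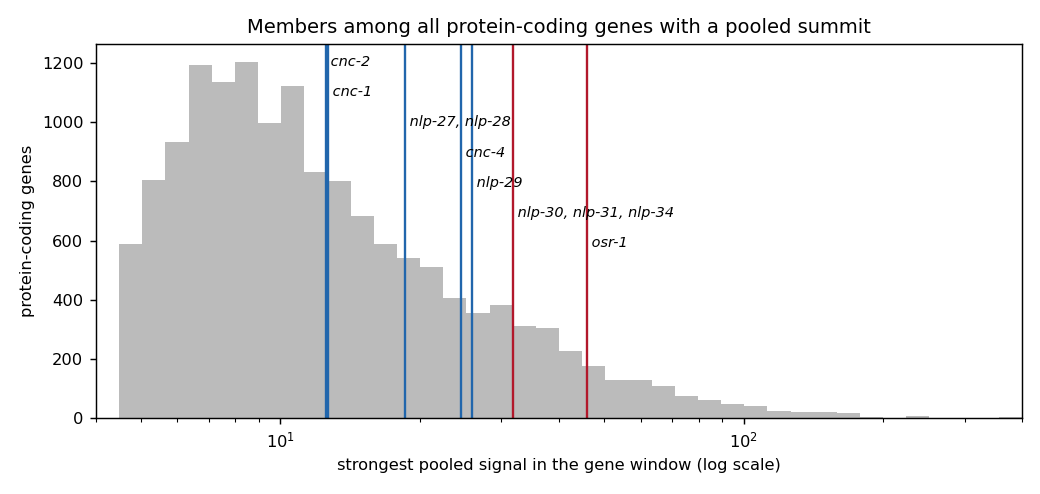
Grey bars count protein-coding genes by the strongest pooled signal in their window (gene body and 2000 bp on either side, log scale), and vertical lines mark the 10 described genes, in red where the value is past the lowest IDR signal of 27.7. cnc-1 and cnc-2 lie near 12.6, nlp-27, nlp-28, cnc-4 and nlp-29 lie between 18.6 and 25.9, and nlp-30, nlp-31, nlp-34 and osr-1 lie at 31.8 or above.

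The IDR list held the 1910 strongest of the 30000 pooled peaks, so its edge falls at a pooled signal of 27.7. The nlp-31 summit, at 31.8, was the weaker of the 2 summits of these genes inside that edge. The 25.9 summit downstream of nlp-29 and the 24.5 summit at cnc-4 were the nearest outside it. Across the lists the summits at osr-1 and nlp-31 took nearly the same place in both replicates, as was common among IDR summits. The summits at cnc-4 and nlp-27 did not.

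The nlp cluster spans 6 described genes on chromosome V (ce11), and their joined windows cover 14946 bp. In chromosomal order these are nlp-34 (V:3978825-3979134, minus strand), nlp-31 (V:3980055-3980622), nlp-30 (V:3981980-3982741), nlp-29 (V:3984425-3984847), nlp-28 (V:3987900-3988316) and nlp-27 (V:3989378-3989770), the last 5 on the plus strand. These windows held 1 IDR summit, 10 pooled summits, 6 summits of replicate 1 and 9 of replicate 2. Pooled summits were at 669 per Mb here, 394 per Mb in the cnc windows and 276 per Mb in the osr-1 window, against 299 per Mb over the nuclear chromosomes.

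**Figure D2:**
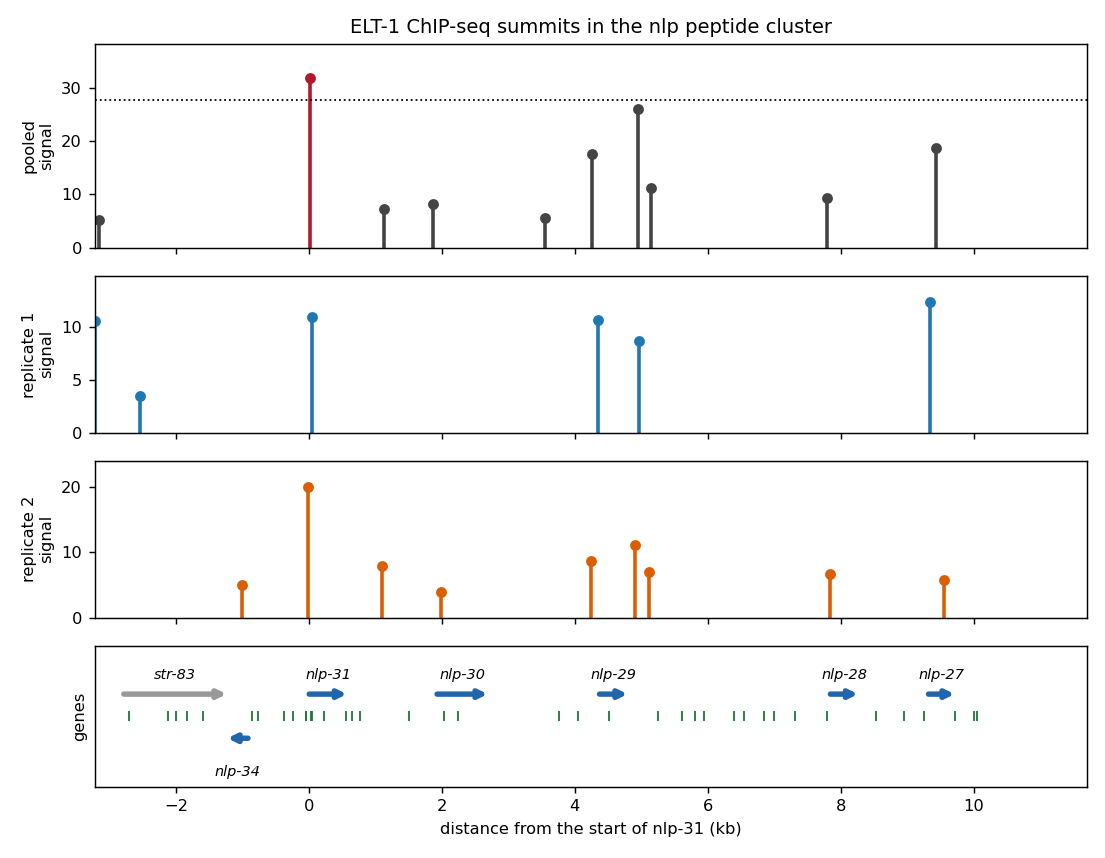
Signal (vertical axes, the authors' scale of each list) of every summit in the nlp cluster in the pooled list and in replicates 1 and 2, by distance from the nlp-31 start in kb. The red stem is the IDR summit at 31.8, the dotted line is the lowest IDR signal of 27.7, arrows are genes (blue for described genes, grey for str-83) and green ticks are searched GATA sites. The nlp-31 summit is highest in the pooled list and replicate 2, and the nlp-27 summit is highest in replicate 1.

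nlp-31 encodes a secreted peptide with antimicrobial activity in vitro, and it held the cluster's one IDR summit. The summit (V:3980071, peak V:3979901-3980240) lay 16 bp past the gene start, in an exon of nlp-31 that the annotation gives as untranslated. Its pooled signal was 31.8, at rank 1502 of the pooled list. The replicate 1 signal was 10.9, at rank 1951, with the summit 23 bp further along. The replicate 2 signal was 20.1, at rank 1678, with the summit at -32 bp. In percentiles of the list (the share of peaks ranked below), the replicates stood at 93.3 and 94.4, a gap of 1.13 points. The median gap was 12.1 points over the 5679 pooled summits with a match in both replicates within 100 bp. Over the 1735 nuclear IDR summits so matched, which are all among the strongest pooled peaks, the median gap was 2.00 points. The peak held 4 of the searched sites.

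nlp-34, a peptide gene induced with nlp-29 on infection, is read in the opposite direction and starts 937 bp from the nlp-31 summit. Its gene body is 920 bp from that of nlp-31, and the peak covers the nlp-31 start at the far end of the stretch between these divergent genes. nlp-30, a peptide gene of the same family, starts 1909 bp downstream of this summit and has the peak only at the far end of its window. Closer to nlp-30, the pooled list had a summit of 8.14 at -65 bp, at rank 13142, with no summit of either replicate within 100 bp. The closest replicate 2 summit lay 53 bp past the nlp-30 start, with a signal of 3.98 at rank 23175. Its peak (V:3981861-3982204) overlapped the pooled peak. A further pooled summit of 7.32, at -799 bp from nlp-30, was matched in replicate 2 at rank 7713 and not in replicate 1.

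nlp-29, the gene whose promoter drives the standard reporter of epidermal infection, had no IDR summit, and the nearest lay 4354 bp from its start. Its strongest pooled summit (V:3985006, peak V:3984836-3985175) lay 159 bp past the gene end, with a signal of 25.9 at rank 2099. Replicate 1 gave 8.71 there at rank 2920, and replicate 2 gave 11.2 at rank 4328. A partly overlapping pooled peak, with its summit 360 bp past the gene end, had a signal of 11.2. The upstream summit (V:3984311, peak V:3984141-3984480) lay 114 bp before the start, with a pooled signal of 17.5 at rank 3734. Replicate 1 gave 10.7 at rank 2030 with a summit 97 bp away, and replicate 2 gave 8.62 at rank 6723 with a summit at -14 bp. Both nlp-29 summits were thus found in both replicates, the downstream one with a percentile gap of 4.37 and the upstream one with a gap of 15.4.

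nlp-27 and nlp-28, the remaining glycine-rich peptide genes of the cluster, lie 1061 bp apart and share both of their pooled summits. The stronger one (V:3989490, peak V:3989320-3989659) fell in a coding exon of nlp-27, 112 bp past its start, with a pooled signal of 18.6 at rank 3404. Replicate 1 gave 12.4 at rank 1537, its highest value in the cluster. Replicate 2 had no summit within 100 bp. Its closest lay 236 bp past the nlp-27 start, with a signal of 5.84 at rank 13412. That replicate 2 peak (V:3989442-3989785) overlapped the pooled peak. The weaker one lay 57 bp before the nlp-28 start, with a pooled signal of 9.30 at rank 10469. Replicate 2 gave 6.71 there, and replicate 1 had no summit within 100 bp. By the 100 bp match, the 2 replicates therefore differed in which summits they listed at these genes, though at nlp-27 their peaks overlapped.

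The outermost pooled summit of the cluster lay at -379 bp from the start of the predicted chemoreceptor gene str-83. It had a pooled signal of 5.29 at rank 25322 and a replicate 1 signal of 10.6 at rank 2073. Replicate 2 had no summit within 100 bp, so the lists differed widely here. The summit reached the window of nlp-34 only past that gene's end.

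The 3 described caenacin genes also lie together on chromosome V, but none had an IDR summit. They are cnc-1 (V:1444044-1444280, minus strand), cnc-4 (V:1447195-1447707, plus strand) and cnc-2 (V:1449665-1450183, minus strand), interspersed with cnc-5 and cnc-3. Their joined windows of 10140 bp held 4 pooled summits, 4 summits of replicate 1 and 5 of replicate 2, and the nearest IDR summit to a start was 21579 bp away, at cnc-2.

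cnc-4, induced in the epidermis on infection, had the strongest pooled summit of the cluster. The summit (V:1447116, peak V:1446946-1447285) lay 79 bp before the gene start, with a pooled signal of 24.5 at rank 2297. Replicate 1 gave 4.84 at rank 9551, and replicate 2 gave 19.6 at rank 1746. Both replicates placed the summit within 18 bp of the pooled position. The percentiles were 67.1 in replicate 1 and 94.2 in replicate 2, a gap of 27.1 points. A larger gap was found at 30.1% of pooled summits matched in both replicates, most of which were weaker than this one. Over matched IDR summits, all stronger in the pooled list than this one, the median gap was 2.00 points.

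cnc-2, the caenacin known to depend on DBL-1, had no pooled summit in its promoter window (1000 bp before to 200 bp after a transcript start). Its window held 2 weaker pooled summits shared with cnc-4, and the closest gene start to both was that of cnc-3, another caenacin gene. One had a pooled signal of 12.5, a replicate 1 signal of 3.76 and no replicate 2 summit within 100 bp. The other lay 63 bp past the end of cnc-4 and had a pooled signal of 9.27, a replicate 1 signal of 2.71 and a replicate 2 signal of 10.5. The second had a percentile gap of 59.5 points, and 7.47% of matched pooled summits had a larger one. Each had a searched site within 50 bp, AGATAG at the first and TGATAG at the second.

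cnc-1 likewise had no pooled summit in its promoter window. The 1 pooled summit of its window lay 64 bp before cnc-11, with a pooled signal of 12.7 and a replicate 1 signal of 7.29. Replicate 2 had a single summit in the cnc-1 window, with a signal of 3.15 at rank 29981 of 30000. That value is at the bottom of its list.

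osr-1 (I:5200259-5203504, minus strand), the regulator of the osmotic response, had the strongest summit among the 10 genes in the pooled list and in each replicate. The summit (I:5203876, peak I:5203706-5204045) lay 372 bp before the gene start in intergenic sequence. Its pooled signal was 45.9 at rank 754, its replicate 1 signal was 14.4 at rank 1178, and its replicate 2 signal was 30.1 at rank 772. The summit was at the same base in replicate 1 and 5 bp away in replicate 2. The percentile gap of 1.48 points was smaller than that of 83.7% of matched pooled summits. Matched IDR summits, all among the strongest pooled peaks, had a median gap of 2.00 points. No searched site lay within 50 bp of this summit, and the 1 site in the peak was an AGATAA 130 bp away. A second pooled summit of 7.80 lay in an intron, 179 bp past the start, and was matched in replicate 2 at 4.64 and not in replicate 1.

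**Figure D3:**
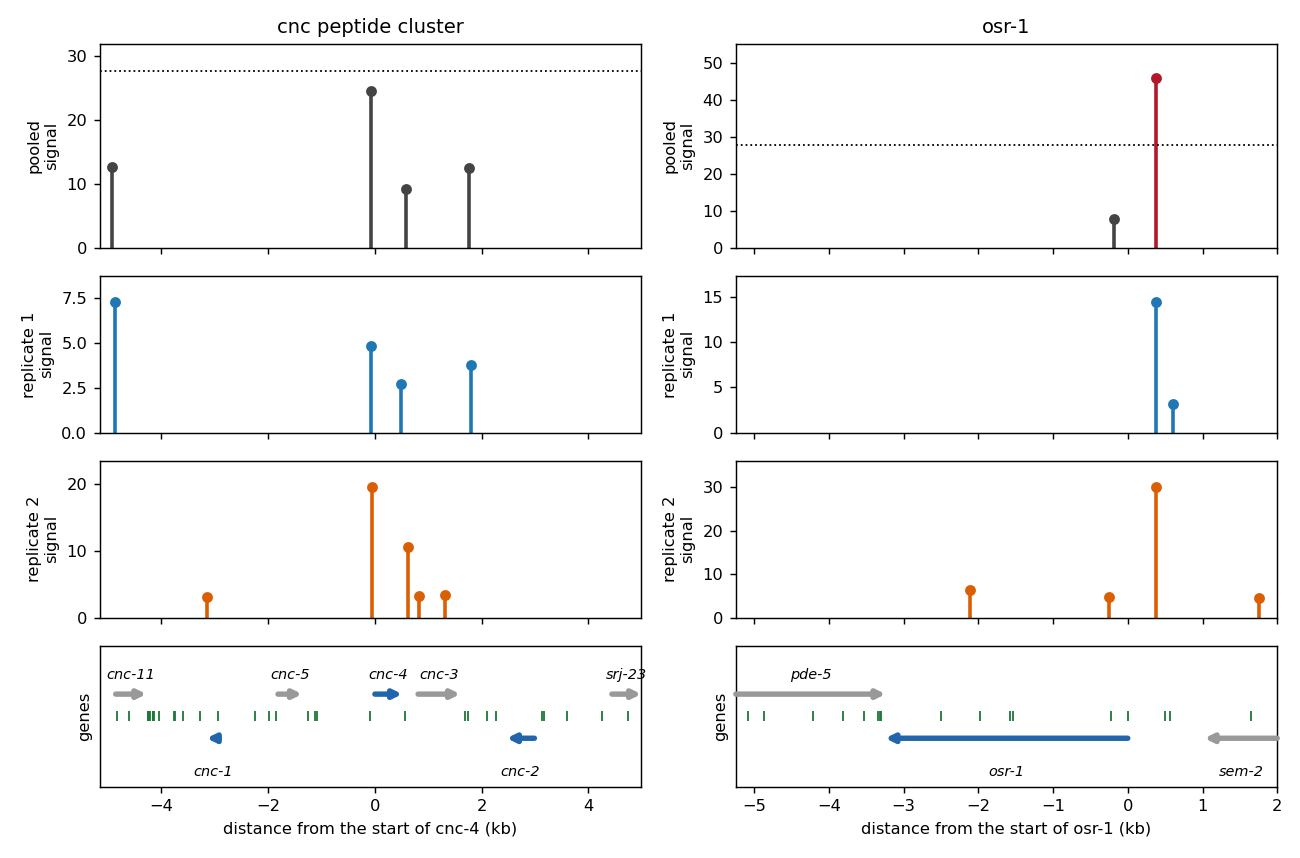
Signal (vertical axes, the authors' scale of each list) of every summit at the cnc genes (left) and at osr-1 (right) in the pooled list and in replicates 1 and 2, by distance in kb from the start of cnc-4 or osr-1, with dotted lines at the lowest IDR signal of 27.7. Distance runs along the chromosome, so upstream of osr-1 is to the right; blue arrows are described genes, grey arrows are other genes and green ticks are searched GATA sites. The cnc-4 summit of 24.5 stays under the dotted line, with 4.84 in replicate 1 and 19.6 in replicate 2, and the osr-1 summit (red stem) reaches 45.9.

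osr-1 was also the only one of the 10 genes with a summit among the 1910 strongest of both replicates, beside 6.98% of protein-coding genes. In replicate 1 taken alone, nlp-27, nlp-28 and osr-1 had such a summit. In replicate 2 taken alone, nlp-30, nlp-31, nlp-34, cnc-4 and osr-1 had one. The nlp-31 summit passed in replicate 2 at rank 1678 and missed in replicate 1 at rank 1951. The shares of all protein-coding genes were close to each other, at 10.6% in replicate 1 and 10.8% in replicate 2.

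**Figure D4:**
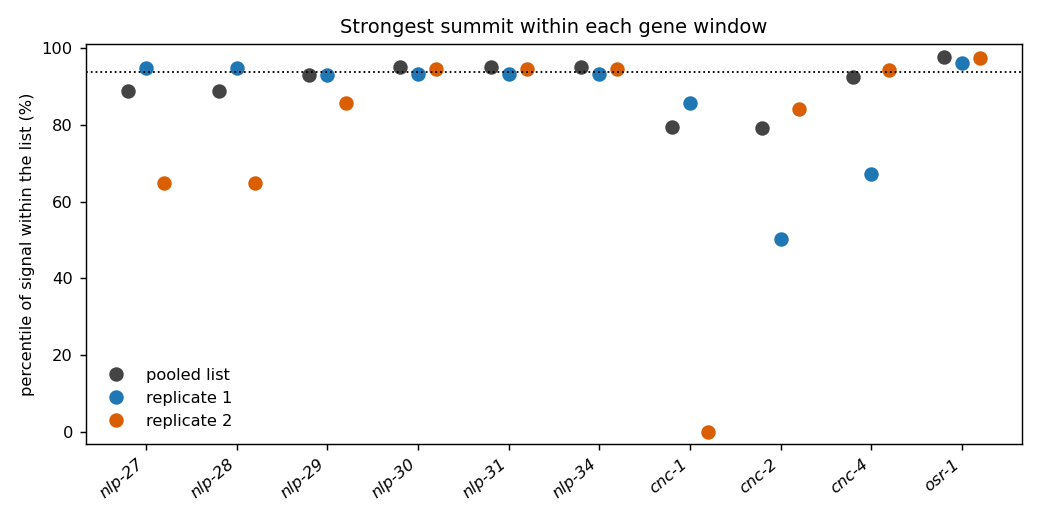
Percentile of the strongest summit in each gene's window within the pooled list, replicate 1 and replicate 2 (share of the list's peaks ranked below it, vertical axis in percent), with a dotted line where the IDR list begins in the pooled list. osr-1 is above the line in all 3 lists, nlp-30, nlp-31 and nlp-34 show the same shared peak, and cnc-1 falls near 0 in replicate 2.

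Position relative to the gene start separated the genes further. In the promoter window, an IDR summit was present at nlp-31, nlp-34 and osr-1, 3 of 10 genes beside 5.03% of all protein-coding genes. A pooled summit was present there at 8 of 10 genes, all but cnc-1 and cnc-2, beside 41.2% of protein-coding genes. The median distance from a gene start to the nearest IDR summit was 6092 bp for the 10 genes and 25548 bp over all protein-coding genes. For all 6 nlp genes the nearest was the single nlp-31 summit, 16 to 9307 bp away. The cnc genes lay 21579 to 27482 bp from one. These counts and distances are not of separate events, since 9 pairs of the genes have overlapping windows and 6 pairs share a pooled summit. Of the 16 pooled summits, 9 lay in the windows of 2 or more of these genes. Over the genome, 43.3% of pooled summits lay in the windows of 2 or more protein-coding genes. That share counts the windows of any such genes, whereas the 9 leave out neighbours such as cnc-3 and cnc-11. The 2 values are therefore not alike in measure.

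Sharing was closest between nlp-30 and nlp-31, with 3 common pooled summits. The pairs nlp-27 with nlp-28, nlp-29 with nlp-30, and cnc-2 with cnc-4 shared 2 pooled summits each. nlp-34 shared 1 with nlp-31 and with nlp-30. The windows of these genes were not long, with a median of 4468 bp against 6026 bp over all protein-coding genes, and the median number of pooled summits in a window was 2 for both.

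Among the 16 pooled summits of the 10 genes, 6 had a summit of each replicate within 100 bp, that is 37.5%, against 18.9% of all nuclear pooled summits. These 6 were the summits at nlp-31 and osr-1, both strong summits of nlp-29, the one before cnc-4 and the 9.27 one past its end. Each replicate taken alone matched 10 of the 16, against 39.3% of all summits for replicate 1 and 55.1% for replicate 2.

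A site was counted as within 50 bp of a summit only where all of its bases were. A searched site lay within 50 bp of 5 of the 16 pooled summits (31.3%), against 22.3% of all pooled summits. Those 5 were at nlp-31, nlp-28 and cnc-4, and both summits shared by cnc-2 and cnc-4. A TGATAA whose closest base was 49 bp from the osr-1 summit of 7.80 lay only partly inside and was not counted. Of the 2 IDR summits, that at nlp-31 had a site and that at osr-1 did not, while 39.7% of all IDR summits had one. The windows of the 10 genes held 88 sites, or 2.72 per kb, against 2.38 per kb over the nuclear chromosomes. The cnc windows were densest at 3.16 per kb, with 3 of 32 sites at a pooled summit, and the nlp windows had 2.61 per kb, with 3 of 39 at one. Most sites in these windows were therefore not at a listed summit.

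In the stretch from 250 bp before to 50 bp after the gene start, 8 of the 10 genes had a site, against 54.5% of protein-coding genes. nlp-31 had 5 and nlp-34 and cnc-2 had 2 each, and nlp-29 and nlp-30 had none. cnc-2 thus had 2 sites close to its start and no summit in its promoter window, whereas nlp-29 had a summit 114 bp before its start and no site. The promoters of the nlp genes were 46.5% to 64.2% identical in pairwise alignment, most so for nlp-28 and nlp-29. Those of the cnc genes were 49.7% to 54.9% identical. Unrelated promoters were not aligned beside them, so these values alone do not show shared promoter sequence.

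Repeated sequence was uneven between the regions, which bears on how well reads could be placed. In the nlp windows, 18.3% of stretches of 32 bases occurred elsewhere in the genome, against 2.54% in the cnc windows and 0 in the osr-1 window. None of the stretches in the nlp-31, nlp-29, cnc-4 or osr-1 peaks described above was repeated. Repeats were 1.62% of stretches in the nlp-28 peak, 2.59% in the nlp-27 peak and 9.71% in the 12.5 peak near cnc-3. Read length is not given in the sources used here. The part of repeats in the unmatched replicate summits at nlp-27 and nlp-28 was not tested.

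Peptide genes of the same families outside the list included stronger summits. Of 13 other nlp and cnc genes, 2 (15.4%) had an IDR summit, both nlp, beside 10.9% of all protein-coding genes. nlp-24, another neuropeptide-like gene, had IDR summits of 163 at -1382 bp and 99.3 at -287 bp from its start, at ranks 50 and 153. Its strongest signal was 56.6 in replicate 1 and 107 in replicate 2. nlp-33, which is induced by fungal infection, had IDR summits of 41.2 at -77 bp and 40.2 at 989 bp past its start. The nlp-24 summit at 163 and the nlp-33 summit at 40.2 had a searched site within 50 bp, and their partners did not. The median strongest pooled signal was 24.5 over the 9 of these genes with a pooled summit, in which cnc-3 and cnc-5 repeat the cnc-4 peak.

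In the epidermal p38 pathway, which induces nlp-29, 2 of 15 genes (13.3%) had an IDR summit, near the 10.9% of all protein-coding genes. nipi-3, a Tribbles-type pseudokinase needed for nlp-29 induction, had one of 58.8 at -322 bp, with 30.3 in replicate 1 and 29.6 in replicate 2, and one of 28.7 that lay closer to rab-14. tir-1, the TIR-domain adaptor upstream of the kinase cascade, had one of 31.8 in an exon given as untranslated, 28852 bp past its start. The tir-1 window held 24 pooled summits, and its strongest signal was 9.01 in replicate 1 and 20.7 in replicate 2. pmk-1, the p38 kinase itself, had no pooled summit. The transcription factor gene sta-2 and the transporter gene snf-12, which act at the end of the pathway, had pooled signals of 13.3 and 11.8. Of 4 genes of DBL-1 signalling, which acts on cnc-2, 0 had an IDR summit, and 4 genes are too few to set beside that 10.9%. Their strongest pooled signal was 11.3 at the receptor gene daf-4.

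In the osmotic response, 4 of 14 genes (28.6%) had an IDR summit, beside 10.9% of all protein-coding genes. ptr-23, a patched-related gene tied genetically to the osmotic response, had summits of 174 in an intron and 108 at -1387 bp. gpdh-2, which encodes a glycerol-3-phosphate dehydrogenase of glycerol synthesis, had one of 153 in an intron, 910 bp past its start. wnk-1, a kinase of cell volume control, had one of 40.6 at -1796 bp. unc-43, the calcium/calmodulin-dependent kinase that acts with osr-1, had one of 29.4 in an intron, 7631 bp past its start. The unc-43 window held 17 pooled summits, against a median of 2 over all protein-coding genes. gpdh-1, the osmotically induced partner of gpdh-2, had no IDR summit and a strongest pooled signal of 7.05. The osr-1 signal of 45.9 thus lay below those at ptr-23 and gpdh-2 and above those at wnk-1 and unc-43.

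**Figure D5:**
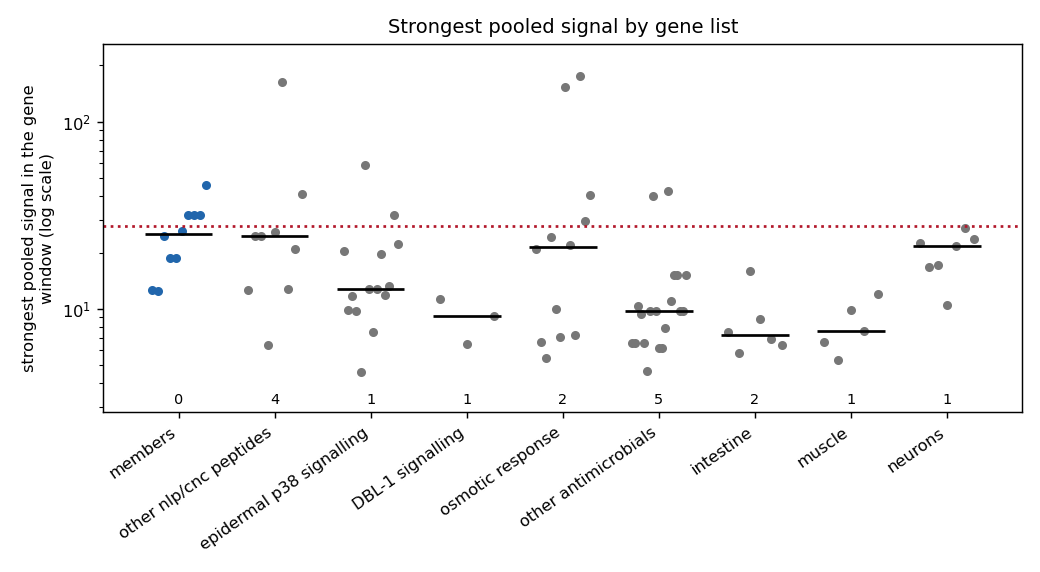
Each point is the strongest pooled signal in a gene's window (log scale) for the 10 described genes and for 8 other gene lists, horizontal bars are medians, the dotted line is the lowest IDR signal of 27.7 and the numbers along the bottom count genes with no pooled summit. The described genes have a median of 25.2, the osmotic response list a median of 21.4 with the highest points at ptr-23 and gpdh-2, and the DBL-1, intestine, muscle and neuron lists have no point above the line.

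Other antimicrobial genes stood near the share of all genes. Of 24 lysozyme, saposin-like and defensin-like genes, 2 (8.33%) had an IDR summit, lys-9 at 42.6 and lys-10 at 40.3. The lys-9 summit was closest to the start of glct-5 and the lys-10 summit to that of his-32. Marker genes of other tissues had none: 0 of 8 for intestine, 0 of 6 for muscle and 0 of 8 for neurons. The share over all protein-coding genes was 10.9%, and lists this short cannot tell 0 from it. Their median strongest pooled signals were 7.23, 7.66 and 21.6, so neuron markers came close to the 25.2 of the described genes on this measure.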

How the data were processed

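Peak lists of eGFP-tagged ELT-1 in L3 larvae were analysed on ce11, with the WBcel235 sequence and Ensembl release 115. Per the labels, there is 1 group of 2 biological replicates with fragments of 150 to 350 bp. The authors called relaxed lists for each replicate and for both pooled, with a control, and derived the IDR list from them, per the library file headers. Which aligner, peak caller and IDR cut-off were used is not stated in the sources used here. The lists held 1910 (IDR), 30000 (pooled), 29029 (replicate 1) and 30000 (replicate 2) peaks. No peak was identical between replicates. The deposited peak signal served to rank peaks inside each list, and the deposited summit offset to place them. The deposited −log10 q values were not used for ranking, since all 1910 IDR peaks share the highest, 3.83. In the pooled list they went down to 0.0361. Pooled summits of the 10 genes with a signal of 9.30 or less had values of 0.906 or less, so they were weakly supported by this measure. The ce10 lists were not used.

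A gene had a summit if one fell in its body or within 2000 bp. Replicate summits were matched within 100 bp. Sites were searched within 50 bp of summits. No test was run, because there is no second condition. The genes and lists were chosen with earlier results of these data known. Named genes were the 10, the genes nearest their strongest summits, and up to 4 genes per list by IDR signal. Genes named beyond that rule (rab-14, pmk-1, sta-2, snf-12, daf-4, gpdh-1, cnc-3, cnc-5, str-83, glct-5 and his-32) were chosen after their values were seen. Replicates number 2, so spread is given as both values. Alternatives were other window sizes, a promoter window, the stronger 50% of each list, each replicate alone and other site definitions. Scripts used Python 3.11.15, pandas 2.3.3, numpy 2.4.6, Biopython 1.88 and matplotlib 3.10.9 and were checked on simulated data.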

Additional observations from a re-analysis of the deposited data

How the results depend on the processing

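Of 63 alternatives to 9 counts, 43 stayed within 1.5 times the reported count and 20 did not. With the stronger 50% of the IDR list, genes with an IDR summit fell from 4 to 1, distinct IDR summits to 1, IDR summits with a site to 0 and pairs sharing one to 0, because the nlp-31 summit lies in the weaker part. In the promoter window there were 10 distinct pooled summits, 3 of them with a site, and 1 pair sharing an IDR summit and 1 a pooled summit. With 1000 bp on each side, 1 pair shared an IDR summit and 3 a pooled one. With 5000 bp, these pairs were 6 and 17. Genes with a summit among the strongest of both replicates went from 1 to 2 with 5000 bp, and from 1 to 4 with 2 times as many peaks taken at 2000 bp. With a site anywhere in the peak, 2 IDR and 9 pooled summits had one, and with AGATAA alone 2 pooled summits did. With the strongest peaks of 1 replicate in place of the IDR list, genes with a summit ranged from 3 (without replicate 2) to 5 (without replicate 1), summits with a site from 0 to 2 and sharing pairs from 1 to 3. The matching shares of all protein-coding genes were 10.6% and 10.8%. No paired analysis was possible because there is 1 group.

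Only 2 replicates, an unknown read depth and a pooled list that can include background limit these values. Whole larvae, a tagged transgene and the absence of an infected or osmotically stressed group mean that binding under induction, and in which cells, was not measured.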

Other observations

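Strings of 8 bases that recur among the promoters of the 10 genes (250 bp before to 50 bp after the start, either strand) were listed after the sequences had been seen, and 11 strings occurred in 4 or more. They are given as a description without a test. TATAAAAG, which resembles a TATA box, occurred at nlp-27, nlp-28, nlp-29 and cnc-2, starting 30 to 43 bp before the gene start, and in 4.77% of all protein-coding promoters. TGACATCA, singled out by eye from the stretches at nlp-29 and cnc-4, occurred at 3 genes and in 1.28% of all promoters. It started 96 bp before the start of nlp-29 and 48 bp before that of cnc-4 on the strand of the gene, and 2 bp past the start of nlp-31 on the opposite strand. Whether the string has a part in the binding was not tested.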
